A study of Homo sapiens with 3 samples.

Results

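The proteins of the cytosolic ribosome, which translates nearly all messenger RNAs of a human cell, were followed through their transcripts in MDA-MB-231 cells, a triple-negative breast cancer line. Protein-coding genes named on the array were taken when their symbol was RPL or RPS followed by a digit, RPLP0 to RPLP2 or RPSA, and RPS6 kinases and pseudogenes were left out. This rule found 55 genes with 62 probe sets, of 11916 named protein-coding genes and 53617 probe sets on the array. The members were chosen by symbol, not by their values. They comprised 28 proteins of the large (60S) subunit and 17 of the small (40S) subunit, 8 paralogs, 1 readthrough gene (RPL36A-HNRNPH2) and 1 binding protein (RPS19BP1). A further 32 of the 77 canonical subunit genes, among them RPL5, RPLP0 and RPS2, had no named probe set and were not analysed here.

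Cells received Mt-CFX at 10 µM, CFX at 10 µM, or 1% DMSO as the vehicle, each for 72 h, and each of the 3 groups was 1 array. Ciprofloxacin, an antibiotic of the fluoroquinolone class, is named in the title of the series, and Mt-CFX is known here by its code name. All groups share the line and the 72 h of culture. Since a group is 1 array, the spread between replicates is unknown, nothing was tested, and all values below describe 3 arrays. Values are log2 expression per probe set, and differences are differences of log2 values, and a difference of at least 0.32 log2 served as the limit of size. The labels name DMSO for the control and give no solvent for the compounds, so compound and solvent cannot be told apart. The arrays were scaled to a common distribution, so a change in total RNA per cell or in cell number cannot be seen in these values. Of markers of the line, VIM stood at 9.17 on all 3 arrays, AXL at 10.86, 10.93 and 10.97 and EGFR at 9.68, 9.82 and 9.82 with Mt-CFX, with CFX and in the control. CD44, a further marker of the line, stood at 7.31 with Mt-CFX and 7.65 on both other arrays. Of the luminal genes, GATA3 stood at 5.52 on each array and EPCAM at 5.11 with Mt-CFX and 5.37 on both other arrays, all above the median of all probe sets. The hormone receptor genes ESR1, at 3.81, 3.92 and 3.81, and PGR, at 2.39 on each array, were near or below the median of all probe sets.

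As background, each ribosome joins a large subunit, which forms peptide bonds, to a small subunit, which reads the messenger RNA, and the proteins of a subunit are made in matching amounts. Ribosomal protein messenger RNAs are known for a 5′ terminal oligopyrimidine tract (TOP), a C at the first transcribed base followed by a run of C and T bases, through which mTORC1 and LARP1 control their translation. Ribosomal protein genes also have many processed pseudogenes of near-identical sequence, and probes can read transcripts of such copies.

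The windows below show where that tract lies in members that differed most between the arrays, in 2 members among the brightest and in 4 paralogs. RPL10, RPL19, RPS19 and RPL26L1 had several annotated starts. For such genes the start shown was picked in favour of the tract, by a C start with pyrimidines after it and then by the longest run. Each runs from 60 bases before the annotated start to 20 bases into the transcript on the gene's strand, from RefSeq on GRCh38.p14, and capitals mark the run of C and T bases that spans the first transcribed base.
RPS27, chr1:153990702-153990781, plus strand: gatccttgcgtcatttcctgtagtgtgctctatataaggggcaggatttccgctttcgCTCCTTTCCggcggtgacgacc
RPS16, chr19:39435930-39436009, minus strand: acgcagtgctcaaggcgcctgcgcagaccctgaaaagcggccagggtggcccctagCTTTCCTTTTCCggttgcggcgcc
RPS19, chr19:41860195-41860274, plus strand: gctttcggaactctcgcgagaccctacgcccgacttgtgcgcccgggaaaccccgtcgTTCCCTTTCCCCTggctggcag
RPS28, chr19:8321436-8321515, plus strand: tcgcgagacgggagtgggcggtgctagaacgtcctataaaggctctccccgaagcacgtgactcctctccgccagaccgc
RPL39, chrX:119791611-119791690, minus strand: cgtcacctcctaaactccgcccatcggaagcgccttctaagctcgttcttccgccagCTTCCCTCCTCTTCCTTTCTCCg
RPL19, chr17:39200263-39200342, plus strand: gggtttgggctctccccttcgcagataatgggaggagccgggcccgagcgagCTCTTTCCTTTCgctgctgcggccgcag
RPL10, chrX:154398317-154398396, plus strand: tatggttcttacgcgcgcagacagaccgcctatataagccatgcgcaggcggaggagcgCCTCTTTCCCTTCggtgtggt
RPL12, chr9:127451387-127451466, minus strand: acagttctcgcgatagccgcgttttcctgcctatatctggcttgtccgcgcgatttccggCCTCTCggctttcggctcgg
RPL22L1, chr3:170870176-170870255, minus strand: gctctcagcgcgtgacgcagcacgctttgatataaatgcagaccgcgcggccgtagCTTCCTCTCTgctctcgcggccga
RPL36AL, chr14:49620607-49620686, minus strand: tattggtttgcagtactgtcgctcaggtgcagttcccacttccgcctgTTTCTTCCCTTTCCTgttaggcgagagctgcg
RPL26L1, chr5:172958669-172958748, plus strand: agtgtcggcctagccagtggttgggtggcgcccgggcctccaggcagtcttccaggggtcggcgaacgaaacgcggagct
RPS27L, chr15:63157458-63157537, minus strand: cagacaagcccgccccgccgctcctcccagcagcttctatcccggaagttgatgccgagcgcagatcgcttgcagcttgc
The run is 22 bases long in RPL39, 12 in RPS16 and RPL19 and 6 in RPL12, while RPS28, RPL26L1 and RPS27L start on a purine at the annotated base. A start with C at the first base and C or T at each of the next 4 was found in 30 of 42 canonical members with a window, or 71.4%, and in 6.24% of 15843 protein-coding genes with one. Of the paralogs 1 of 6 had it, RPL22L1. The letters CTCTTTCC, on either strand of the whole 300 base window, were found in 7 of the 42 (16.7%), against 4.02% of all protein-coding genes. The ETS-type motif CTTCCGG, likewise on either strand, was found in 13 of 42 (31%), against 16.5% of all protein-coding genes and 21.2% of the genes compared here. Where a gene had several annotated starts, any of them counted. RPL8, RPL30, RPL39L, RPL3L, RPS15A and RPS19BP1 have no window here.

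With Mt-CFX, most ribosomal protein transcripts stood slightly above the vehicle control. Of the 45 canonical members 30 were higher, 0 were lower and 15 had exactly the same value on both arrays. Most differences were small, with a median of 0.047 log2 over these 45 genes, and the widest, that of RPS15A, was 1.41-fold. The 9 other members above the low-value limit went differently: 2 were higher, 4 were lower and 3 were equal.

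Over the 54 members that passed the limit on low values (a highest array of at least 3.89, the median of all probe sets), 32 lay above the control with Mt-CFX, 4 lay below it and 18 were equal. Among the 8868 protein-coding genes compared, 23.9% were higher and 23.2% were lower. The median difference was 0.021 over the 54 members and 0.00 over all genes compared. The one member below the limit was RPL10L, a paralog of RPL10 known from testis, at 2.59 on all 3 arrays. In a band of similar brightness, 5.81 to 7.67 log2, 28.4% of 3350 genes were higher and 27.3% were lower. This band spans the interquartile range of the members' means, so the member counts above also cover brighter and dimmer members outside it. Higher by at least 0.32 log2 were 5 members, RPS15A, RPS27, RPL39, RPL19 and RPS28, 9.26% of the 54, against 4.68% of all genes compared, and 0 members were that much lower, against 4.24%.

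**Figure D1:**
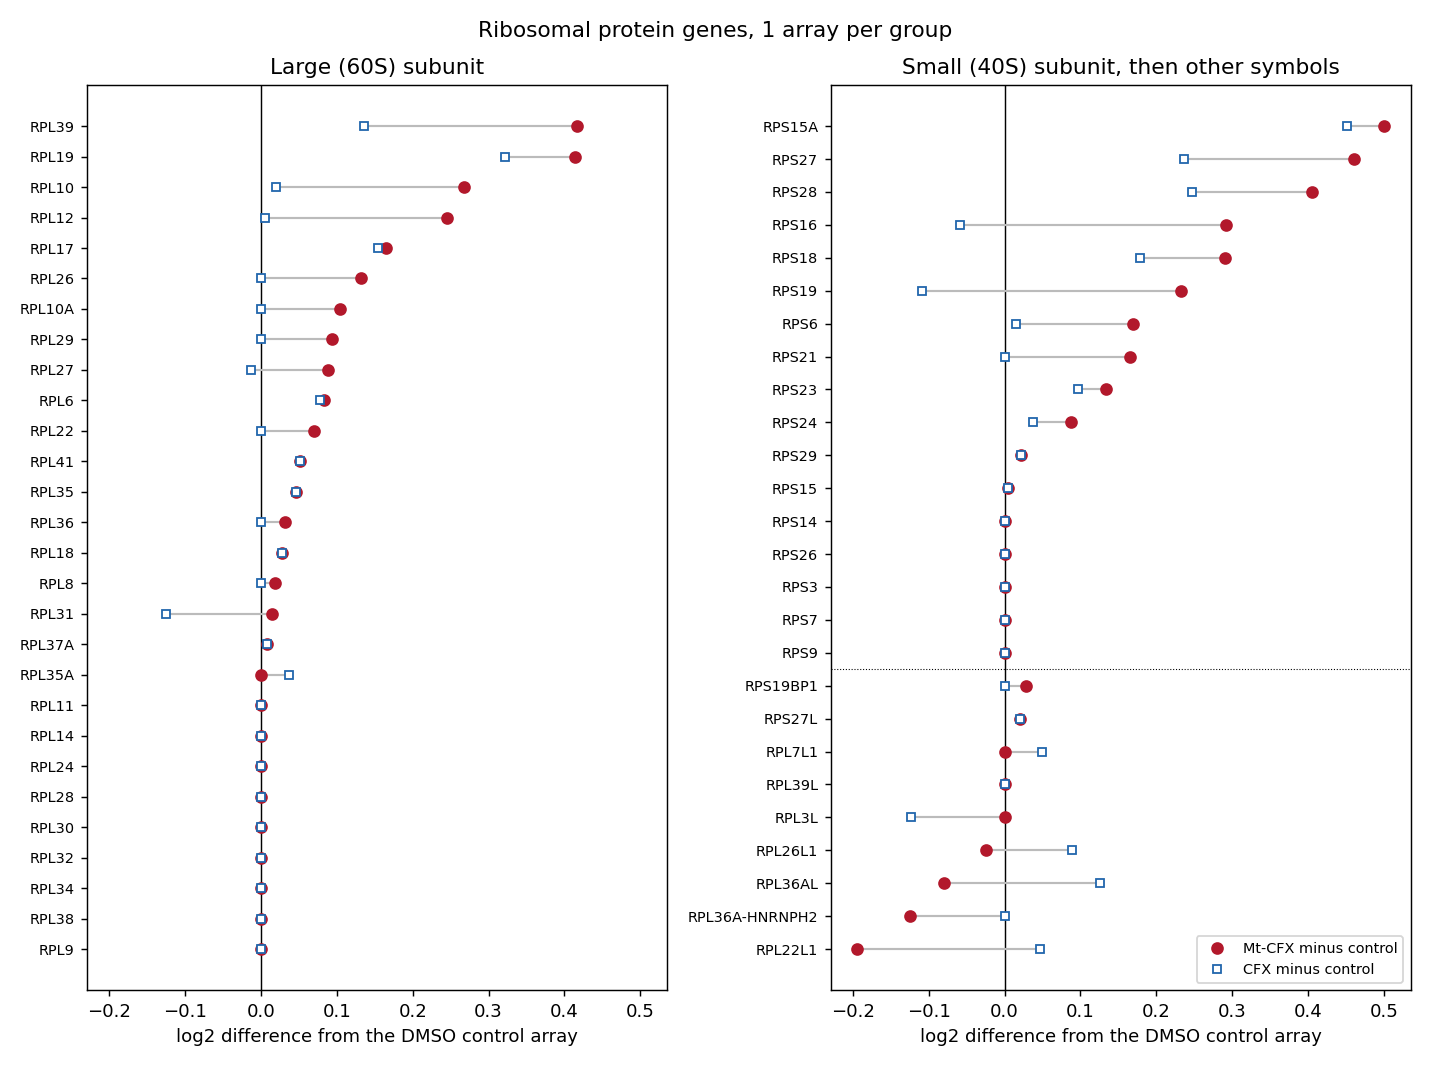
Log2 difference from the DMSO control array for the 54 ribosomal protein genes above the low-value limit, Mt-CFX as filled circles and CFX as open squares, 1 array per group and no error bars. The left panel holds the 28 large subunit genes, the right panel the 17 small subunit genes and, under the dotted line, 9 other members. With Mt-CFX no canonical gene lies left of 0, while 4 of the 9 others do.

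In the small subunit 12 of 17 members were higher with Mt-CFX and 5 were equal, with a median difference of 0.13. RPS15A, a core protein of the 40S body, stood at 6.39 with Mt-CFX and 6.34 with CFX, against 5.89 in the control. Both compound arrays thus lay well above the control array, with little between them. RPS27, a zinc finger protein of the 40S subunit, stood at 10.83 with Mt-CFX, 10.61 with CFX and 10.37 in the control, so Mt-CFX was 1.38-fold above the control. RPS28, a small protein near the exit of the messenger RNA channel, stood at 11.23, 11.07 and 10.82 on the same arrays, a 1.32-fold difference for Mt-CFX. For these genes the CFX array lay between the others.

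RPS16, whose tail reaches towards the decoding site, showed another order, with 7.45 with Mt-CFX, 7.10 with CFX and 7.16 in the control. RPS19, which is needed to mature the 40S subunit and is often mutated in Diamond-Blackfan anaemia, stood at 9.52, 9.18 and 9.29. Here Mt-CFX alone lay above the control. RPS18, a protein of the 40S head, stood at 7.70 with Mt-CFX, 7.59 with CFX and 7.41 in the control at its brightest probe set. RPS6, the classical substrate of the S6 kinases, was at 7.06, 6.90 and 6.89, and RPS21 at 7.85, 7.69 and 7.69. RPS23, which contacts the decoding site, differed by 0.13 with Mt-CFX, RPS24 by 0.088, RPS29 by 0.022 and RPS15 by 0.0049, at 10.59 on each array. Exactly equal on all 3 arrays were RPS3, RPS7, RPS9, RPS14 and RPS26.

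In the large subunit 18 of 28 members were higher with Mt-CFX and 10 were equal, with a median difference of 0.029. RPL39, a very short protein that lines the peptide exit tunnel, stood at 7.80 with Mt-CFX, 7.52 with CFX and 7.38 in the control. RPL19, which takes part in a bridge between the subunits, stood at 8.77, 8.68 and 8.36, so that both compound arrays lay above the control. RPL10, which joins late in 60S maturation, stood at 10.46 with Mt-CFX, 10.21 with CFX and 10.19 in the control. RPL12, at the base of the stalk that recruits translation factors, stood at 11.49, 11.25 and 11.24. In these last genes the Mt-CFX array lay apart and the CFX array stood beside the control.

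A middle group of large subunit members differed by less. With Mt-CFX RPL17 was at 7.11, against 6.94 in the control, RPL26 at 8.51 against 8.38, RPL10A at 8.39 against 8.29 and RPL29 at 6.26 against 6.16. RPL27 differed by 0.088, RPL6 by 0.083, RPL22 by 0.070, RPL41 by 0.051, RPL35 by 0.047 and RPL36 by 0.032. RPL18, RPL8, RPL31 and RPL37A differed by 0.027, 0.019, 0.015 and 0.0084. RPL11, which carries 5S RNA into the ribosome and can bind MDM2, stood at 8.62 on all 3 arrays. RPL9, RPL14, RPL24, RPL28, RPL30, RPL32, RPL34 and RPL38 also had a single value each, and RPL35A was equal with Mt-CFX and in the control.

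The large subunit median lay 0.10 below the small subunit median for Mt-CFX over control. For CFX over control the gap was −0.0049 and for Mt-CFX over CFX −0.047, in each case large minus small. By means, the large subunit lay at 0.081 and the small subunit at 0.16 for Mt-CFX over control. The gap for Mt-CFX rests on few genes and on which probe sets are used: it was −0.036 over members whose probe set number lies in its gene's place, as described below, and −0.0035 when such probe sets were used throughout. Of 12 measured genes mutated in Diamond-Blackfan anaemia, which come from both subunits, 8 were higher with Mt-CFX and 4 were equal, with a median of 0.088. This share, 66.7%, is the same as that of all 45 canonical members.

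**Figure D2:**
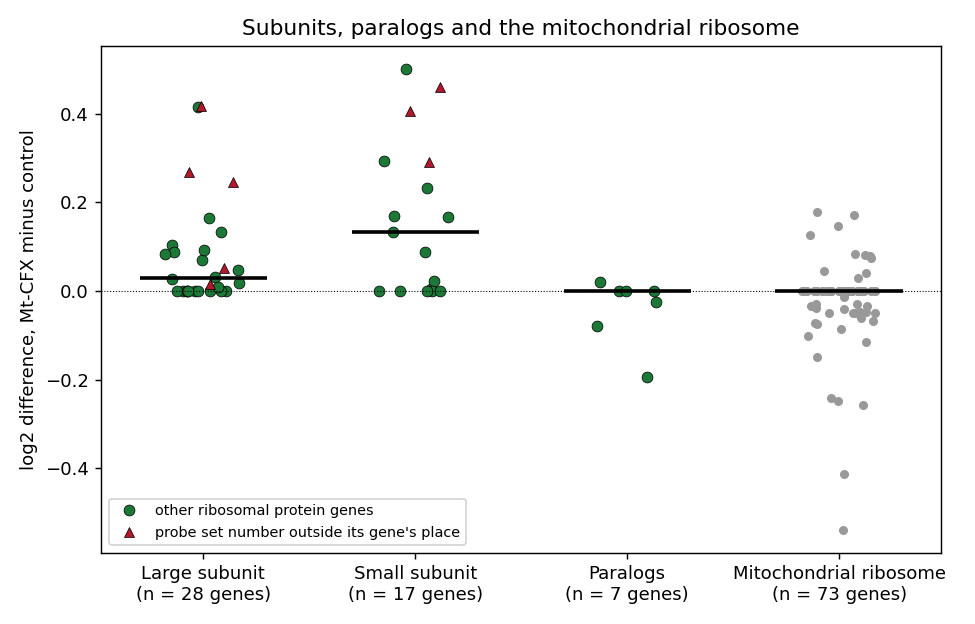
Log2 difference of Mt-CFX over the DMSO control array for each large subunit, small subunit, paralog and mitochondrial ribosomal protein gene, with black lines at the medians. Points are genes of 1 array per group, spread sideways for legibility, and triangles mark genes whose probe set number lies outside their gene's place. The subunit medians are 0.029 and 0.13, and RPS27, RPS28 and RPS18 are triangles near the top of the small subunit.

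Several probe sets were named for 4 members, RPL19, RPL39, RPL41 and RPS18, and they differed in what they showed. RPL19 stood at 8.77 with Mt-CFX, 8.68 with CFX and 8.36 in the control at probe set 16833742, but at 7.46, 7.41 and 7.41 at probe set 16844119. RPL39 stood at 7.80, 7.52 and 7.38 at probe set 17106601, but at 6.64, 6.71 and 6.62 at probe set 17113629. RPS18 stood at 7.70, 7.59 and 7.41 at probe set 16956928, but at 7.10 on each array at probe set 17007426, where Mt-CFX differed from the control by 0.0041. In each case the brighter probe set, which the rule keeps, showed the wider difference of Mt-CFX from the control, and in RPL39 the direction between the compounds turned. RPL41, the shortest ribosomal protein, had 5 probe sets whose differences for Mt-CFX ran from −0.098 to 0.051, and 2 of them were equal on all arrays. The range between the probe sets of a gene had a median of 0.33 over these 4 genes and 0.042 over all 487 protein-coding genes with several probe sets. Signs for Mt-CFX over control were opposite in 1 of the 4 genes, RPL41, and in 27 of the 487.

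**Figure D3:**
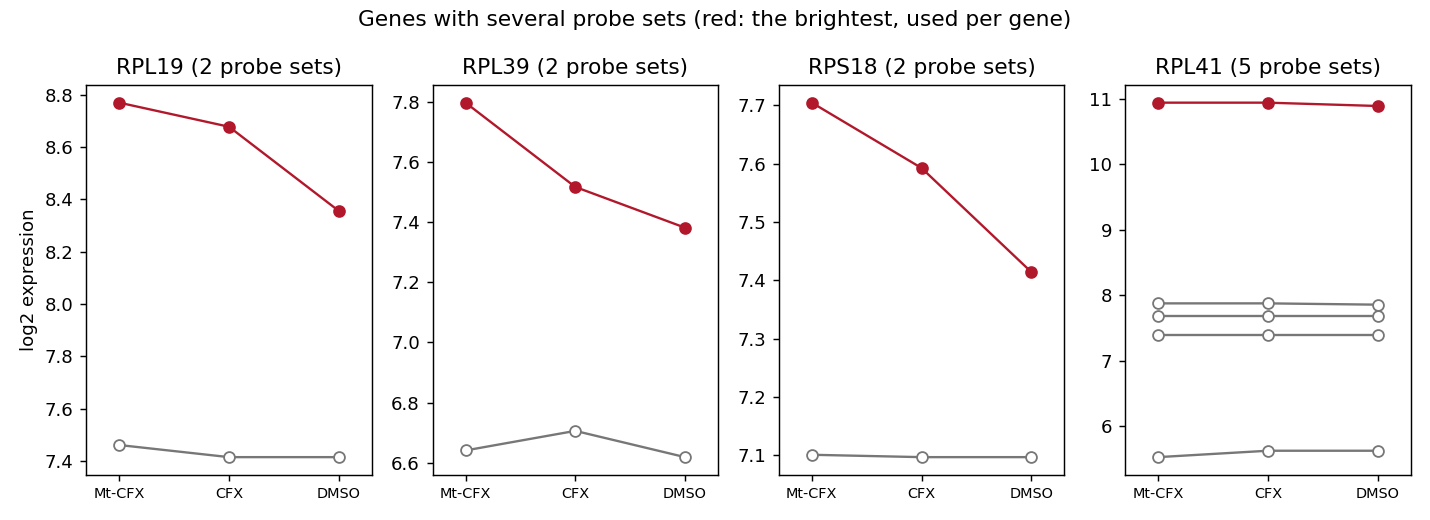
Log2 expression of each probe set of the 4 ribosomal protein genes with several, on the Mt-CFX, CFX and DMSO arrays, with separate vertical scales and no error bars. Red marks the brightest probe set, which stands for the gene. The red lines of RPL19, RPL39 and RPS18 lie 0.41, 0.42 and 0.29 higher with Mt-CFX than in the control, while the grey lines below them differ by at most 0.046.

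Over most of the array, probe sets with neighbouring numbers were named for genes of the same chromosome and strand, and 96.7% of 12695 named protein-coding probe sets were in place by this measure. For 8 of the 54 members, 14.8%, the probe set in use was out of place: fewer than 10 of the 20 nearest named probe sets were of the gene's own chromosome, or most of those with a known strand lay on the other strand. Among all genes compared this held for 1.36%. All 20 neighbours of the RPS28 probe set were named for genes of chromosome 11, while RPS28 lies on chromosome 19. All 20 neighbours of the RPS27 probe set were of chromosome 12, against chromosome 1 for the gene. The brighter RPS18 probe set had 20 neighbours of chromosome 3, against chromosome 6 for the gene. The brighter RPL39 probe set lay among X chromosome genes, but 0 of the 15 neighbours with a known strand shared the strand of RPL39, and the weaker one had 14 of 14 on it. For RPL19 it was the weaker probe set that was out of place, with 0 of 14 neighbours on the gene's strand. RPL10, RPL12, RPL31 and RPL41 had neighbours of mixed chromosomes, at most 7 of 20 from any one, so number order says nothing of which copy these 4 probe sets belong to. What these probes hybridise to was not tested.

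Of the 8 out-of-place members 8 were higher with Mt-CFX, with a median of 0.28. The share of higher values among all out-of-place genes was not counted. These 8 include 5 of the 6 members with a mean of at least 10 log2, where 57.9% of 38 other genes were also higher. They hold 3 of the 5 members higher by at least 0.32 log2, while 9 of 415 such genes among all compared were out of place. Of these 8, RPS27, RPS28, RPS18 and RPL39 are the 4 whose neighbours point to another place, and their differences ran from 0.29 to 0.46, while those of the 4 with mixed neighbours ran from 0.015 to 0.27. For 6 members counted in place, RPS15A among them, the strand of the gene was not given here and the chromosome alone was compared. Over the 46 members in place, chosen after seeing the data, 24 lay above the control, 4 below it and 18 level with it, with a median of 0.0066. Over the canonical members in place 22 of 37 were higher and 0 were lower, with a median of 0.022. With in-place probe sets used throughout, RPL41 was the 1 canonical member below the control, at 5.53 with Mt-CFX and 5.63 on both other arrays. The share of higher members among the 46 in place, 52.2%, stands beside 23.9% of all genes compared. When out-of-place probe sets were removed throughout, 26 of 49 members were higher. These are 53.1% higher and 10.2% lower, beside 23.8% and 23.2% of 8797 genes.

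**Figure D4:**
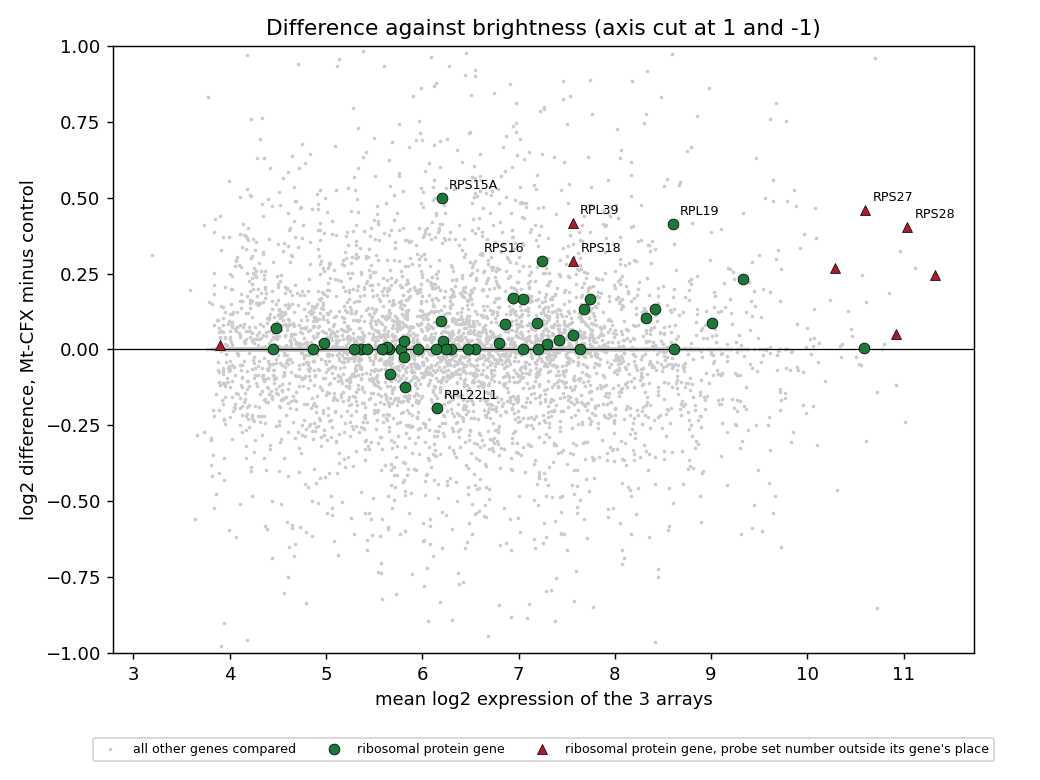
Log2 difference of Mt-CFX over the DMSO control array against the mean log2 expression of the 3 arrays, for ribosomal protein genes (circles, or triangles where the probe set number lies outside its gene's place) and for all other genes compared (grey). The vertical axis is cut, which leaves 50 grey genes outside it. All 6 members with a mean of at least 10 lie above 0, and 5 of them are triangles.

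Brightness moved with the difference. Of the 27 brighter members 23 were higher with Mt-CFX and 0 were lower, with a median of 0.13. The 27 dimmer members split into 9 higher, 4 lower and 14 equal, with a median of 0.00. The 4 lower ones were RPL22L1, RPL26L1, RPL36AL and RPL36A-HNRNPH2, none of them canonical. Every out-of-place member but RPL31 was among the 27 brighter. Brightness, gene class and probe set place therefore overlap in this split, and their parts in it were not tested. Among members averaging under 5 log2, 3 of 5 were higher, against 15.8% of 2470 other genes. At 5 to 6 log2, 2 of 12 members were higher and 3 were lower, and 20.8% of 2265 other genes were higher, so members in this band did not exceed the rest. At 6 to 7 log2, 6 of 12 members were higher, against 27.1% of 1949 other genes. At a mean from 7 to 8 log2, 10 of 13 members were higher, against 32.7% of 1286 other genes. At 8 to 10 log2, 5 of 6 members were higher, against 31.2% of 759 other genes. At 10 log2 and above 6 of 6 members were higher, against 57.9% of 38 other genes. The part of probe brightness in these differences was not tested beyond these bands.

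With CFX, the members stood less far from the control. Higher values were found in 25 of the 54 members, lower values in 5 and equal values in 24, with a median difference of 0.00. Among all genes compared 25.8% were higher and 15.0% were lower. RPS15A, at 1.37-fold, was the one member higher by at least 0.32 log2, against 0.97% of all genes, and 0 members were that much lower, against 0.733%. RPL19, at 0.3218, lay just under that limit of 0.3219, and RPS28 and RPS27 followed at 0.25 and 0.24.

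The remaining members above 0.1 log2 with CFX were RPS18 at 0.18, RPL17 at 0.15, RPL39 at 0.14 and the paralog RPL36AL at 0.13. Below the control lay RPL31 at −0.12, the paralog RPL3L at −0.12, RPS19 at −0.11, RPS16 at −0.059 and RPL27 at −0.013. RPL31 is near the limit on low values, at 3.95 with Mt-CFX, 3.82 with CFX and 3.94 in the control, where differences of this size are poorly resolved. By subunit, 11 of 28 large and 9 of 17 small subunit members were higher with CFX, with medians of 0.00 and 0.0049.

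Set against CFX at the same dose and time, Mt-CFX gave values that were higher in 26 of 54 members, lower in 6 and equal in 22, with a median of 0.00. Among all genes compared 20.1% were higher and 25.2% were lower. RPS16, at 0.35 log2 or 1.28-fold, and RPS19, at 0.34 log2 or 1.27-fold, were the members higher by at least 0.32 log2, against 3.44% of all genes, and 0 members were that much lower, against 4.16%. Next came RPL39 at 0.28, with −0.065 at its other probe set, RPL10 at 0.25, RPL12 at 0.24 and RPS27 at 0.22. Lowest were RPL22L1 at −0.24, RPL36AL at −0.21, RPL36A-HNRNPH2 at −0.12 and RPL26L1 at −0.11. With 1 array per compound no interval can be given for these differences, and genes of like value cannot be called alike in their response. The 3 comparisons share arrays, so they are not independent of each other.

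**Figure D5:**
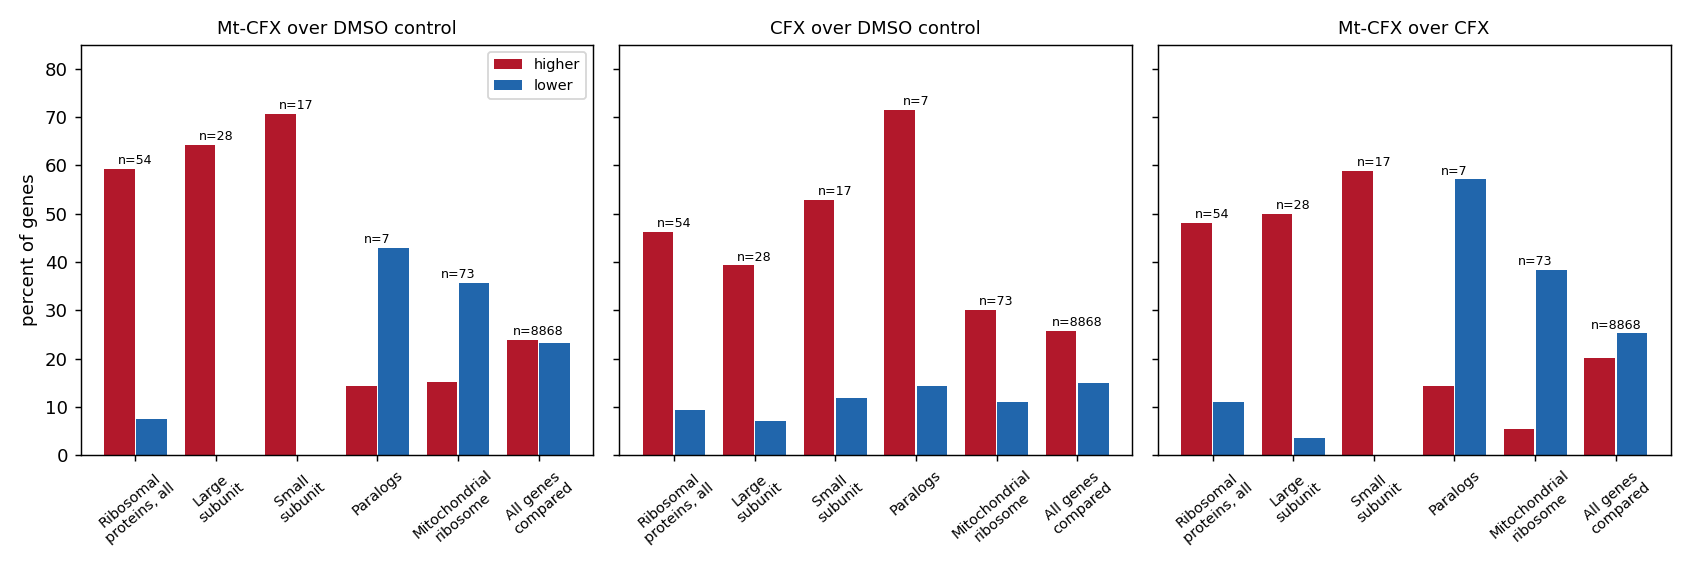
Percent of genes with a higher (red) and a lower (blue) value in each of the 3 comparisons, for all 54 ribosomal protein genes above the low-value limit, the subunits, the paralogs, the mitochondrial ribosomal protein genes and all 8868 genes compared, with the number of genes over each pair. The remainder to 100 percent had exactly equal values. With Mt-CFX over control 70.6% of small and 64.3% of large subunit genes were higher, against 15.1% of mitochondrial ribosomal protein genes.

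The order of the arrays differed between members. In 20 of 54 members, or 37%, all 3 values differed, against 23.9% of all genes compared, and 13 of these ran in the order Mt-CFX, CFX, control from high to low. In 4, RPL27, RPL31, RPS16 and RPS19, Mt-CFX was highest and CFX lowest. In 3, the paralogs RPL22L1, RPL26L1 and RPL36AL, CFX was highest and Mt-CFX lowest. Of these 20 members 17 were higher with Mt-CFX than in the control, against 1021 of 2120 such genes among all compared. The orders were not counted over all genes. In 9 members CFX and the control were exactly equal and Mt-CFX stood apart, higher in 8 of them. At 16.7% this pattern is close to the 13.8% of all genes, where Mt-CFX was higher in 593 of 1227. In 7 members both compounds shared one value above the control, among them RPL18, RPL35, RPL41 and RPS29. Both compounds shared a value apart from the control in 13% of members, and in 9.36% of all genes. For 505 of 830 such genes among all compared the shared value lay above the control. A single value on all 3 arrays was found in 15 members, or 27.8%, against 45.3% of all genes compared.

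The paralogs, encoded by genes of their own and often used in particular tissues, differed from the control by at most 0.19 log2 with Mt-CFX. Of 7 above the limit, Mt-CFX gave a higher value for 1, RPS27L, a lower value for 3 and an equal value for 3, while 5 were higher and 1 was lower with CFX. Over all genes compared 23.9% were higher and 23.2% lower with Mt-CFX, and 7 genes are too few to set against these shares. RPL22L1, the paralog of RPL22, stood at 6.01 with Mt-CFX, 6.25 with CFX and 6.20 in the control, whereas RPL22 itself stood at 4.53, 4.46 and 4.46. RPL36AL stood at 5.57, 5.78 and 5.65, and RPL26L1 at 5.77, 5.88 and 5.79. These 3 lay below the control with Mt-CFX and above it with CFX.

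RPS27L, known as a target of p53, stood at 4.99 with either compound and 4.97 in the control, while RPS27 differed by 0.46 with Mt-CFX at an out-of-place probe set. RPL7L1, which acts in 60S assembly, stood at 7.62, 7.67 and 7.62, and RPL3L, the striated muscle paralog of RPL3, at 4.50, 4.37 and 4.50. RPL39L was at 4.87 on all arrays. Of the other symbols, RPL36A-HNRNPH2 stood at 5.73 with Mt-CFX and 5.86 on both other arrays, and RPS19BP1, a nucleolar partner of RPS19, at 5.83 against 5.80.

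Members with and without a TOP-type start at the annotated base had like counts. Of 30 canonical members with such a start 20 were higher with Mt-CFX, with a median of 0.049, and of 12 without one 8 were higher, with a median of 0.053. These counts rest on annotated starts, and RPL19, whose pyrimidine run begins 8 bases before the annotated base and has T there, counts among those without. So does RPS28, where a run of C and T bases begins just after the annotated base. The 12 members without such a start are therefore not shown to lack a TOP tract.

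Genes of mitochondrial ribosomal proteins, which serve the separate ribosome of mitochondria, were more often lower than higher with Mt-CFX. Of 73 genes 11 were higher, 26 were lower and 36 were equal, against 30 higher and 0 lower among the 45 canonical cytosolic members. These are 15.1% higher and 35.6% lower, beside 23.9% and 23.2% of all genes compared. MRPS28 stood at 5.05 with Mt-CFX and 5.59 on both other arrays, and MRPL20 at 5.65 with Mt-CFX, 5.79 with CFX and 6.07 in the control. Medians of these 73 genes were 0.00 in all 3 comparisons, so the lists differ in their counts more than in their medians.

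Of 10 other genes with TOP messenger RNAs, 3 had higher values on the Mt-CFX array than in the control, 2 lower and 5 equal, shares of 30% higher and 20% lower that are near the 23.9% and 23.2% of all genes compared. The elongation factor genes led them, with EEF1G at 10.21 with Mt-CFX, 9.86 with CFX and 9.83 in the control, and EEF2 at 11.17, 10.88 and 10.85. HNRNPA1, an RNA-binding protein gene, was at 7.59, 7.78 and 7.77, and FAU, which encodes a further 40S protein, had equal values. Of 19 genes of the mTORC1 pathway 6 were higher (31.6%) and 4 were lower (21.1%) with Mt-CFX, again near the shares of all genes. The widest differences were those of its inhibitors DDIT4, at 2.58 log2, and SESN2, at 1.66. EIF4EBP1, a translation repressor, stood at 7.63 with Mt-CFX and 7.34 on both other arrays.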

How the data were processed

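Total RNA was labelled as sense cDNA for whole-transcript arrays, per the labels' protocols. The authors deposited 1 log2 value per array and probe set. Per the submitters' processing notes these came from Affymetrix Expression Console with the RMA method. Its version, the annotation release and the build are not given in the sources used here. Values ran from 0.0869 to 13.1. As background, RMA corrects, quantile-normalizes and summarises probes by median polish across arrays, and 49.5% of probe sets had 1 value on all 3 arrays. An equal value is therefore no measure of equal RNA.

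The platform annotation named 16098 probe sets, all matched to RefSeq (GRCh38.p14) by gene ID, and 37519 were unnamed here. Each gene was represented by the probe set with the highest mean of the 3 arrays. Genes whose highest array reached 3.89 log2 were compared, 8868 in all. Differences were counted by sign and at 0.32 log2. With 1 array per group no test was made. Counting at 0.32 log2 was tested on simulated data with large planted differences and no equal values. Counts by sign were not tested in this way.

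Members were taken by symbol, but this rule, the lists and the counts made were set with earlier results of these data known. Named genes were members at least 0.32 log2 apart, with several probe sets, paralogous or below the low-value limit. Members lower with Mt-CFX or among the 5 highest and 5 lowest by mean were also named. List genes were taken from the up to 4 of each list with the widest differences for Mt-CFX, and not all of these are named. Other members are named to account for all of them. The check of probe set order was added after seeing the data. Of 56 small nucleolar RNAs hosted by such genes 0 were named. Work used Python 3.11.15, numpy 2.4.6, pandas 2.3.3, statsmodels 0.14.6 and matplotlib 3.10.9. Precision is limited by the count of arrays.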

Additional observations from a re-analysis of the deposited data

Results flagged for a closer look

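For 7 of 54 members, 13%, the compounds lay on opposite sides of the shared control, as they did for 8.45% of all genes compared. Each compound is 1 array and the difference was not tested. RPS16 differed by 0.292 with Mt-CFX and −0.0592 with CFX, and RPS19 by 0.233 and −0.109. RPL27 differed by 0.0878 and −0.0131, and RPL31 by 0.015 and −0.125. The paralogs ran the other way, RPL22L1 at −0.194 with Mt-CFX and 0.0468 with CFX, RPL26L1 at −0.0249 and 0.0888, and RPL36AL at −0.0799 and 0.126.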

How the results depend on the processing

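Of 130 values recomputed under other settings 0 changed sign, and 109 stayed within 1.5 times or 0.005 log2 of those reported. Most of these values are counts, which cannot change sign. Some settings also leave a value unchanged by construction, such as the brightness band, which changes only the genes set beside the members. These totals are therefore no measure of how firm the results are. The 5 members higher by at least 0.32 log2 with Mt-CFX than in the control became 3 when probe sets of a gene were averaged, 2 with in-place probe sets or in-place members, 13 at 1.1-fold and 0 at 1.5-fold, limits that 11.2% and 1.45% of all genes passed upwards. At 1.1-fold and 1.5-fold the counts were 6 and 0 for CFX over control (all genes 6.65% and 0.045%) and 10 and 0 for Mt-CFX over CFX (all genes 9.27% and 1.13%). With canonical proteins alone, 0 members were lower for Mt-CFX over control and 1 for Mt-CFX over CFX, with medians of 0.0468 and 0.0116. The Mt-CFX over control median was 0.00491 with in-place probe sets and 0.00664 over in-place members. The large minus small gap was −0.00348 and −0.0365 under these settings, and −0.00405 and −0.0189 for Mt-CFX over CFX. Re-centring by a lowess curve (span 0.3, values under 0.005 taken as equal) gave 11 lower members for CFX over control and a median of 0.00993 for Mt-CFX over CFX. The causes were not tested. The in-place settings were chosen after seeing the data. No paired analysis was possible because each group is 1 array, which also leaves no replicate to leave out.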

Other observations

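Ribosome assembly factors were more often above the control with CFX than with Mt-CFX, by small differences. Of 56 measured genes 30 were higher with CFX, 4 were lower and 22 were equal, against 25.8% higher and 15.0% lower among all genes compared. With Mt-CFX higher values were found for 12, lower for 17 and equal for 27, or 21.4% higher and 30.4% lower, beside 23.9% and 23.2% of all genes compared. The CFX median was 0.0063 log2, and 0 of the 56 were higher by at least 0.32 log2, against 0.97% of all genes. With Mt-CFX 2 of the 56 were, EFL1 and EMG1, against 4.68%, and the median was 0.00. EFL1, a GTPase that releases a late 60S assembly factor, stood at 5.68 with Mt-CFX, 5.56 with CFX and 5.26 in the control. EMG1 stood at 6.42 with Mt-CFX and 6.03 on both other arrays. RPF2, which helps to bring the 5S particle into the 60S subunit, stood at 8.15 with either compound and 7.87 in the control. NOL6, a nucleolar factor of early 40S assembly, stood at 6.91 with Mt-CFX and 7.23 on both other arrays. Of 21 listed genes of RNA polymerase I and its factors only 6 were named on the array. With Mt-CFX 2 of these 6 were lower, POLR2H at −0.019 and POLR1F at −0.014, and 4 were equal. The share lower, 33.3%, stands beside 23.2% of all genes compared, and 6 genes are too few to set against it.

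Ribosomal protein pseudogenes above the limit on low values numbered 18. Mt-CFX gave higher values for 7 (38.9%), lower values for 2 (11.1%) and equal values for 9, beside 23.9% higher and 23.2% lower among all genes compared. RPL13AP20 was among the bright ones, at 9.46 with Mt-CFX, 9.36 with CFX and 9.27 in the control, although RPL13A itself was not analysed here. RPL32P3 stood at 5.38, 4.98 and 5.10, while RPL32 was at 5.43 on all 3 arrays.

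Some members shared their exact values with other probe sets, and what those are named for was not checked. The triple of RPL10L was found in 825 probe sets, that of RPS26 in 47, that of RPL14 in 30 and that of RPL34 in 19, and each of these genes had a single value on the 3 arrays.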
